A study of Mus musculus with 14 samples.

Results

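The loss of Lats1 and the loss of Lats2 in mouse mammary tumors were compared with each other, gene by gene, as the difference of 2 differences. The change from WT-PyMT to Lats1-CKO tumors in the experiment on Lats1 was taken first, and the change from WT-PyMT to Lats2-CKO tumors in the experiment on Lats2 was subtracted from it. A positive difference therefore means that a gene was higher after Lats1 loss, relative to its own controls, than after Lats2 loss. All genes counted in both experiments were compared, 17232 of the 18233 genes counted in either, in all 14 tumor libraries of the series. The question was which transcripts respond differently to the removal of each of a pair of closely related kinases in the same tumor model.

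The tumors arose in MMTV-PyMT mice, in which the polyomavirus middle T antigen is expressed from a mammary promoter. In Lats1-CKO and Lats2-CKO mice an exon of the respective gene was removed by Cre under the same kind of promoter. This deletion was described by the study as specific to the mammary gland. Whether vessels, fat, immune cells and stroma of the sampled tumors kept the gene was not measured here. The study examined the mice at 3 months of age. WT-PyMT tumors, which also carry the PyMT transgene, came from littermates without the deletion. The experiment on Lats1 held WT-PyMT tumors 17 (carcinoma), 20 and 22 (adenoma) and Lats1-CKO tumors 14 and 18 (carcinoma), 21 (adenosquamous carcinoma) and 27 (adenoma). The experiment on Lats2 held WT-PyMT tumors 1 (carcinoma), 2 and 14 (adenoma) and Lats2-CKO tumors 1, 8 and 16 (carcinoma) and 7 (adenoma). Each experiment was sequenced as 7 libraries in its own lane and has its own WT-PyMT tumors, so the experiments share no library. A difference between lanes or cohorts that acts equally on WT-PyMT and knockout tumors drops out of the difference of differences, and one that acts unequally cannot be told apart from the genotype.

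LATS1 and LATS2 are serine/threonine kinases at the core of the Hippo pathway. Activated by the MST kinases together with the scaffold SAV1 and the MOB1 adaptors, they phosphorylate the coactivators YAP and TAZ, which are then retained in the cytoplasm or degraded. When the LATS kinases are inactive, YAP and TAZ bind TEAD factors in the nucleus and raise genes such as Ctgf and Cyr61, secreted matricellular proteins, and Lats2 itself. The kinases overlap in this role, and each also has functions outside the pathway.

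Levels are given as read counts scaled to library size (CPM, TMM scaling), and changes on the log2 scale with the standard error (SE) of the fit. Library totals ran from 18593864 to 31909282 counts, with Lats1-CKO libraries the shallowest (18593864 to 22087344). Several libraries stood apart in the genes of other cell types. WT-PyMT 14 and WT-PyMT 22 carried the lymphocyte genes at the highest level of their groups, Lats2-CKO 7 the milk and skeletal muscle genes, and Lats1-CKO 21 the squamous genes. Those values are given beside the results they touch. WT-PyMT 14 also had the lowest sample quality weight in the alternative fit with limma-voom, 0.139 against 0.561 to 2.96 in the other libraries. The tumors are bulk samples, in which fewer cells of a type and less RNA per cell cannot be told apart. No 2 libraries of a group agreed within sampling noise.

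Lats1, on chromosome 10 of GRCm38 from 7681200 to 7716461, was measured at 124, 118 and 102 CPM in WT-PyMT 17, 20 and 22 and at 33.6, 35.8, 37.3 and 32.1 CPM in Lats1-CKO 14, 18, 21 and 27. It was 153, 132 and 107 CPM in WT-PyMT 1, 2 and 14 and 148, 142, 142 and 140 CPM in Lats2-CKO 1, 7, 8 and 16. All 4 Lats1-CKO tumors lay below every other tumor, at 28.0 to 32.5% of the mean of their WT-PyMT tumors, and the groups of the experiment on Lats2 overlapped. The Lats1-CKO change was -1.73 (SE 0.12) and the Lats2-CKO change 0.13 (SE 0.12), a difference of -1.85 (95% interval -2.22 to -1.48) with an adjusted p of 0.00195 in edgeR's quasi-likelihood test with Benjamini-Hochberg adjustment over all 17232 genes. The counts cover the whole gene, not only the removed exon.

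Lats2, on chromosome 14 from 57689662 to 57746212, was measured at 23.8, 29.8 and 55.9 CPM in WT-PyMT 1, 2 and 14 and at 33.7, 8.49, 11 and 16.4 CPM in Lats2-CKO 1, 7, 8 and 16. The library labelled Lats2-CKO 1 lay inside the WT-PyMT range, at 92.3% of the WT-PyMT mean, and the other three lay below it, at 23.3 to 44.9%. In the experiment on Lats1 the levels were 22.2, 19.5 and 29.4 CPM in WT-PyMT 17, 20 and 22 and 32.3, 28.6, 37.6 and 38.2 CPM in Lats1-CKO 14, 18, 21 and 27. There the highest WT-PyMT tumor and the lowest Lats1-CKO tumor overlapped by less than 1 CPM. The difference for Lats2 was 1.60 (95% interval 0.30 to 2.90, unadjusted p = 0.0201), and its adjusted p of 0.913 in edgeR did not pass. Without the library labelled Lats2-CKO 1 the estimate was 2.15, and without WT-PyMT 14, the highest control, it was 1.15. Of the distinct 60-base windows of Lats2 transcripts, 40.9% also occur in the annotated overlapping gene Gm49361, so its count may depend on how shared reads were assigned. Lats2 is both a deleted gene and a target of YAP, and its promoter is shown for the TEAD core motif GGAATG (capitals), which lies 4 bases after the start site on the strand of the gene in RefSeq GRCm38.p6, chr14:57746074-57746373, minus strand. A second annotated Lats2 promoter, at 57734369 to 57734668, holds no match.
Lats2 promoter: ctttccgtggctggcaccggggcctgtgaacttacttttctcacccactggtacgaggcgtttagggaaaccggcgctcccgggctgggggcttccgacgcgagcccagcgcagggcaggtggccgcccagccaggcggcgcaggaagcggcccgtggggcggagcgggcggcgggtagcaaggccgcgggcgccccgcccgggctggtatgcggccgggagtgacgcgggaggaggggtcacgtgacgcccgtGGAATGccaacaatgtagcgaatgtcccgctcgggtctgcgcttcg
The motif, searched on either strand, occurs in 12.9% of the 16140 promoters of compared genes and in 14.7% of all promoters of the same length. It was present in 15.6% of promoters of genes with a higher difference at an unadjusted p under 0.05 and in 9.38% of those with a lower one, and in the promoter of neither Lats1 nor 4833420G17Rik. These shares are descriptions of the sequence and say nothing about binding.

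The difference passed the adjusted threshold of 0.05 for 3 of 17232 genes in edgeR, 0.0174% of those tested, with 2 higher and 1 lower. The gene with the lower difference was Lats1 itself. At an unadjusted p under 0.05 there were 545 genes, 3.16% of those tested, of which 339 were higher (1.97%) and 206 lower (1.20%). A share of 5% at that threshold is what a test with no differing gene would give. DESeq2 called 16 genes and limma-voom with quality weights called 3, the same 3 as edgeR. The 16 of DESeq2 held those 3 too.

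Gm8801, annotated in RefSeq at chromosome 17 from 35947154 to 35953317 within the major histocompatibility region, was close to 0 in Lats2-CKO and higher in every other group. It was measured at 5.64, 5.36 and 3.73 CPM in WT-PyMT 17, 20 and 22 and at 6.04, 2.8, 5.42 and 5.08 CPM in Lats1-CKO 14, 18, 21 and 27. In the experiment on Lats2 it was 2.06, 2.98 and 4.26 CPM in WT-PyMT 1, 2 and 14, and the 4 Lats2-CKO libraries held 1 count among them, in Lats2-CKO 8. The groups overlapped in the experiment on Lats1 and not in that on Lats2, where 3.70% of all genes did not overlap. By counts, 236 against 1, the Lats2-CKO level was lower by a ratio of 323 (exact 95% counting interval 57.4 to 12800). The fitted difference of 7.73 (SE 0.85, adjusted p = 0.00754 in edgeR) depends on the prior count of the fit. Leaving out any WT-PyMT tumor of the experiment on Lats1 ended the call, with adjusted p of 0.0575 to 0.0628 against 0.00252 to 0.0293 under the alternatives other than DESeq2 that kept it, and so did leaving out WT-PyMT 14 and Lats2-CKO 1 and 7 together (0.124). None of the 60-base windows of its annotated transcripts occurs in another gene's transcript. Of 147 compared genes starting within 2 Mb of it, 6 had an unadjusted p under 0.05 (4.08%, against 3.16% of all genes), among them the nonclassical class I genes H2-T3, H2-T10 and H2-M9.

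4833420G17Rik, on chromosome 13 from 119462015 to 119486120, was measured at 27.4, 32.9, 27.0 and 29.5 CPM in Lats2-CKO 1, 7, 8 and 16 and at 91.6, 76.5 and 144 CPM in WT-PyMT 1, 2 and 14. In the experiment on Lats1 it was 87.9, 93.4 and 78.7 CPM in WT-PyMT 17, 20 and 22 and 85.1, 96.8, 84.7 and 86.7 CPM in Lats1-CKO 14, 18, 21 and 27. The 4 Lats2-CKO tumors were the lowest of the 14, in a range under 6 CPM wide, and the other groups overlapped. The Lats2-CKO change was -1.83 (SE 0.18, adjusted p = 0.00178 in edgeR) and the Lats1-CKO change 0.03 (SE 0.18), a difference of 1.86 (95% interval 1.31 to 2.41, adjusted p = 0.0436). The estimate stayed between 1.53 and 2.04 under the 24 alternatives, of which 8 kept it past the threshold, with adjusted p from 3.33e-07 in DESeq2 to 0.596 without WT-PyMT 22. The library labelled Lats2-CKO 1, with Lats2 at the WT-PyMT level, had the same low level as the other Lats2-CKO tumors. The neighbour of 4833420G17Rik, 3110070M22Rik, on chromosome 13 from 119487257 to 119488384, lay in the same direction at a low level. It was 0.142 to 0.290 CPM in Lats2-CKO and 0.410 to 0.826 CPM in WT-PyMT tumors of the experiment on Lats2. Its difference was 2.54 (SE 0.70, unadjusted p = 0.00328, adjusted p = 0.913 in edgeR). Of 12 compared genes starting within 2 Mb of 4833420G17Rik, 2 had an unadjusted p under 0.05, 3110070M22Rik among them (16.7%, against 3.16% of all genes).

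**Figure D1:**
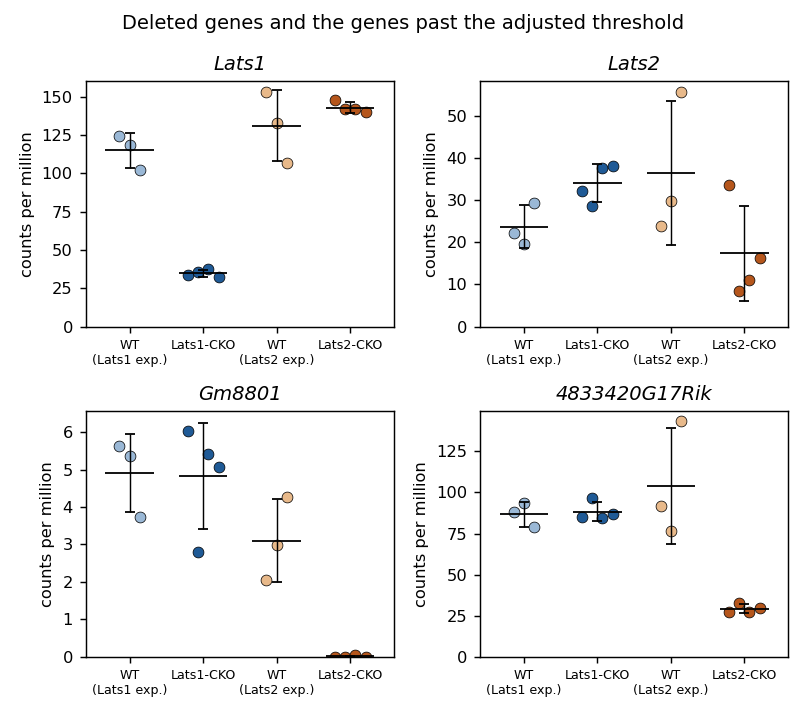
Levels of Lats1, Lats2, Gm8801 and 4833420G17Rik in CPM (vertical axes from 0) in the 4 groups; points are tumors, horizontal lines means and bars SD over 3 WT-PyMT or 4 knockout tumors. Lats1 was lowest in Lats1-CKO at 32.1 to 37.3 CPM, Gm8801 was at or near 0 in Lats2-CKO, and 4833420G17Rik lay at 27.0 to 32.9 CPM in Lats2-CKO.

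Across genes the changes in the 2 experiments tended to have the same sign. In both experiments 2 of 3 WT-PyMT tumors and 1 of 4 knockout tumors were adenomas. The part of histology and of cell content in the shared sign was not tested. Over the 13924 genes with a mean of at least 1 CPM, Pearson's r between the Lats1-CKO and Lats2-CKO changes was 0.62 and Spearman's rho 0.38, given as a description across genes that are not independent replicates. The Lats2-CKO change had an unadjusted p under 0.05 in 2300 genes (13.3% of those tested) and the Lats1-CKO change in 1080 (6.27%). Of the 1847 that were lower in Lats2-CKO, 1529 (82.8%) also had an estimate below 0 in Lats1-CKO. The median of the 1847 was -0.64 in Lats1-CKO against -2.20 in Lats2-CKO. These genes were chosen by their Lats2-CKO change, so part of the gap between the medians follows from the choice. Of the 453 that were higher, 365 (80.6%) were above 0 in Lats1-CKO. The smaller set of the experiment on Lats1 had similar shares, 392 of 522 lower genes (75.1%) and 455 of 558 higher genes (81.5%). Over all 17232 genes, 8064 were below 0 and 9168 above 0 in Lats1-CKO, and 8794 and 8438 in Lats2-CKO. At an unadjusted p under 0.05 in both experiments, 254 genes had the same sign (1.47% of those tested), 172 of them lower and 82 higher, and 17 had opposite signs (0.0987%).

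**Figure D2:**
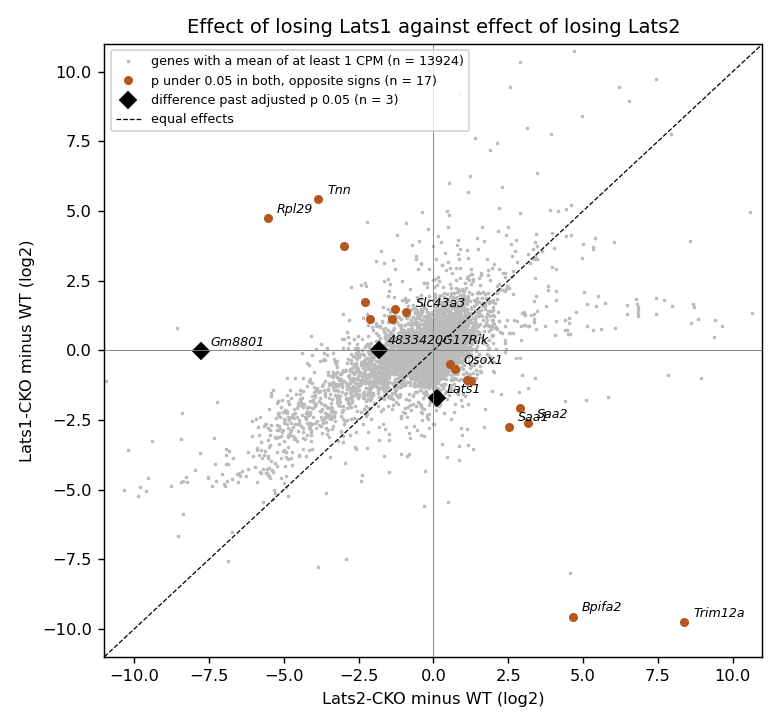
Log2 change in Lats1-CKO (vertical axis) against log2 change in Lats2-CKO (horizontal axis), each relative to the WT-PyMT tumors of its experiment; grey points are the 13924 genes with a mean of at least 1 CPM (4 lie outside the axes), orange points the 17 genes of opposite sign, and diamonds the 3 genes past the adjusted threshold. Most genes far from 0 lie in the lower left or upper right, and the distance from the dashed line of equal change is the difference.

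The 17 genes of opposite sign were chosen by their changes in the experiments, which make up the difference, so their differences are given as descriptions. None passed the adjusted threshold in edgeR or limma-voom, and DESeq2 called 7 of them: Tnn, Slc43a3, Ccdc122, Rpl29, Bpifa2, Saa2 and Trim12a, with adjusted p from 5.84e-06 for Bpifa2 to 0.0397 for Saa2. Of the 17, 8 were higher in Lats1-CKO and lower in Lats2-CKO than in their own WT-PyMT tumors. Among them Tnn, on chromosome 1 from 160085029 to 160153692, encodes tenascin-W, an extracellular matrix glycoprotein that is scarce in healthy adult tissue and present in the stroma of tumors. It was measured at 0.0384, 0.0406 and 0.423 CPM in WT-PyMT 17, 20 and 22 and at 12.2, 3.30, 12.8 and 1.43 CPM in Lats1-CKO 14, 18, 21 and 27. It was 0.142, 0.112 and 2.74 CPM in WT-PyMT 1, 2 and 14 and 0.0966, 0.0475, 0.104 and 0 CPM in Lats2-CKO 1, 7, 8 and 16. The Lats1-CKO tumors all lay above their WT-PyMT tumors and the Lats2-CKO tumors all below theirs, by little for WT-PyMT 1 and 2. The fitted difference was 9.28 (SE 1.98), and 6.36 without WT-PyMT 14.

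Slc43a3, on chromosome 2 from 84936545 to 84958509, encodes a purine base transporter. It was 33, 36.3 and 21.1 CPM in WT-PyMT 17, 20 and 22 and 118, 86.0, 43.0 and 66.8 CPM in Lats1-CKO 14, 18, 21 and 27. It was 14.4, 18.0 and 28.4 CPM in WT-PyMT 1, 2 and 14 and 14.4, 7.54, 8.84 and 12.6 CPM in Lats2-CKO 1, 7, 8 and 16. The groups did not overlap in the experiment on Lats1, and in that on Lats2 the highest Lats2-CKO and the lowest WT-PyMT tumor were both at 14.4 CPM. The difference was 2.28 (SE 0.51), and adjusted p was 0.913 in edgeR and 0.0186 in DESeq2. Ccdc122, a coiled-coil gene on chromosome 14 from 77036772 to 77112263, had a difference of 3.24 (SE 0.72), with 2.66 to 6.75 CPM in Lats1-CKO against 1.04 to 3.65 CPM in WT-PyMT, and 0.427 to 1.09 CPM in Lats2-CKO against 1.78 to 4.26 CPM. The ranges overlapped in the first experiment and not in the second.

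Cnr1, which encodes the cannabinoid receptor CB1, was 1.83 to 6.02 CPM in Lats1-CKO against 0.934 to 1.81 CPM in WT-PyMT, and 0.617 to 1.55 CPM in Lats2-CKO against 1.39 to 5.92 CPM (difference 2.753, and 1.83 without WT-PyMT 2). The remaining members of the 8 were Lrch2, Brinp3, 3110070M22Rik and Rpl29, with differences of 4.04, 6.73, 2.54 and 10.27. Without WT-PyMT 2 that of Rpl29 was 4.38. For Brinp3 no group exceeded 1.28 CPM. Rpl29, which encodes a protein of the large ribosomal subunit, was at 38.8 to 50.5 CPM in Lats1-CKO 18, 21 and 27 and 32.2 CPM in WT-PyMT 2, and at 0 to 1.57 CPM in the other 10 tumors. Of its 1309 distinct 60-base transcript windows, 409 occur in transcripts of other genes, 61 in number, so reads of the gene and its copies may have been split by the counting and its values are uncertain.

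The other 9 were lower in Lats1-CKO and higher in Lats2-CKO. Qsox1, on chromosome 1 from 155778155 to 155812899, encodes a sulfhydryl oxidase that forms disulfide bonds in secreted proteins. It was 216, 202 and 203 CPM in WT-PyMT 17, 20 and 22 and 109, 143, 148 and 126 CPM in Lats1-CKO 14, 18, 21 and 27. It was 251, 273 and 118 CPM in WT-PyMT 1, 2 and 14 and 316, 478, 256 and 351 CPM in Lats2-CKO 1, 7, 8 and 16. The groups of the experiment on Lats1 did not overlap, and in that on Lats2 only Lats2-CKO 8 lay within the WT-PyMT range. The difference was -1.36 (SE 0.38), and -1.07 without WT-PyMT 14, the lowest control. Creld2, which encodes a chaperone-like protein of the endoplasmic reticulum, had a difference of -1.05 (SE 0.30), with 55.6 to 68.2 CPM in Lats1-CKO against 79.9 to 91.4 CPM in WT-PyMT, and 51.0 to 88.7 CPM in Lats2-CKO against 32.0 to 60.8 CPM. Its WT-PyMT tumors already differed between the experiments, by 0.90 on the log2 scale (unadjusted p = 0.00199 in edgeR).

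Saa1 and Saa2 encode serum amyloid A proteins, acute-phase apolipoproteins induced by inflammatory cytokines. Saa1 was 452, 181 and 610 CPM in WT-PyMT 17, 20 and 22 and 79.1, 53.9, 79.7 and 36.0 CPM in Lats1-CKO 14, 18, 21 and 27. It was 246, 313 and 114 CPM in WT-PyMT 1, 2 and 14 and 87.6, 4505, 243 and 386 CPM in Lats2-CKO 1, 7, 8 and 16. The Lats1-CKO tumors all lay below their WT-PyMT tumors, whereas the Lats2-CKO tumors spanned the WT-PyMT range, with Lats2-CKO 7 far above it, Lats2-CKO 16 slightly above and Lats2-CKO 1 below. Saa2 followed the same order of groups, with 28.6 to 73.8 CPM in Lats1-CKO, 134 to 469 CPM in its WT-PyMT tumors, and 3551 CPM in Lats2-CKO 7. The differences were -5.28 (SE 1.53) and -5.77 (SE 1.65), and -2.82 and -3.00 without Lats2-CKO 7. That library also carried the highest milk and skeletal muscle genes of its group, and the part of those cell contents in the Saa result was not tested. Of 2529 distinct 60-base windows of Saa1 transcripts, 654 (25.9%) occur in Saa2, so the pair is uncertain where counting could divide reads between them. Their promoters are shown because of how alike they are in a pair with like values: 287 of 299 aligned bases (96%) were identical. Capitals mark bases that differ or are unpaired. The sequences are from RefSeq GRCm38.p6, chr7:46742931-46743230, minus strand, for Saa1 and chr7:46751583-46751882, plus strand, for Saa2, and neither holds GGAATG.
Saa1 promoter: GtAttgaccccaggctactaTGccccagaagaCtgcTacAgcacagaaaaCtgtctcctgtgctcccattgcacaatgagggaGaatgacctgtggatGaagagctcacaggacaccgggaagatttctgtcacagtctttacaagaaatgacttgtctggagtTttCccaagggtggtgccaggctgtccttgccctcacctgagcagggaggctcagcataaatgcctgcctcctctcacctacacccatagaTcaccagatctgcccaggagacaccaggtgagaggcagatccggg
Saa2 promoter: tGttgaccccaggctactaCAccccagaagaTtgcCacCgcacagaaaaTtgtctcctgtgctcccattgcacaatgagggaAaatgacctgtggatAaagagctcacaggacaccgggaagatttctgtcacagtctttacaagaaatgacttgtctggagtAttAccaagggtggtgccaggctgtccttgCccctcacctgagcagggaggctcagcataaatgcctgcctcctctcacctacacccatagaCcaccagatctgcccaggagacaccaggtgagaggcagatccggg

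Bpifa2, which encodes a secreted protein of the salivary gland and the PLUNC family, was 28.4, 0.162 and 10.7 CPM in WT-PyMT 17, 20 and 22, and the 4 Lats1-CKO libraries held 1 count among them, in Lats1-CKO 27. By counts, 1020 against 1, the Lats1-CKO level was lower by a ratio of 1100 (exact 95% counting interval 196 to 43300). In the experiment on Lats2 the WT-PyMT tumors were at 0.304 to 0.711 CPM and Lats2-CKO 1, 7, 8 and 16 at 0.193, 0.996, 54.2 and 3.19 CPM. The levels were widely spread within groups, and the high ones rested on WT-PyMT 17 and 22 and Lats2-CKO 8. Mtmr9, a myotubularin-related phosphatase subunit on chromosome 14 from 63519651 to 63544027, was 30.3 to 32.2 CPM in all 4 Lats1-CKO tumors and 30.5 to 137 CPM in their WT-PyMT tumors, and 78.1 to 266 CPM in Lats2-CKO against 62.2 to 92.3 CPM (difference -2.34, and -1.31 without WT-PyMT 22). Its neighbour Xkr6, from 63606530 to 63845706, had the same order of groups at a low level, with 1 count over the 4 Lats1-CKO libraries and 0.898 to 2.06 CPM in Lats2-CKO. Trim12a, a TRIM-family gene, reached 13.2 CPM in WT-PyMT 22 and 7.7 and 15.9 CPM in Lats2-CKO 8 and 16, and had 0 or 1 counts in each of the other 11 tumors. Gm15908 and 6430562O15Rik complete the 9, with differences of -4.95 and -2.19. Gm15908 stayed under 0.2 CPM in every tumor.

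**Figure D3:**
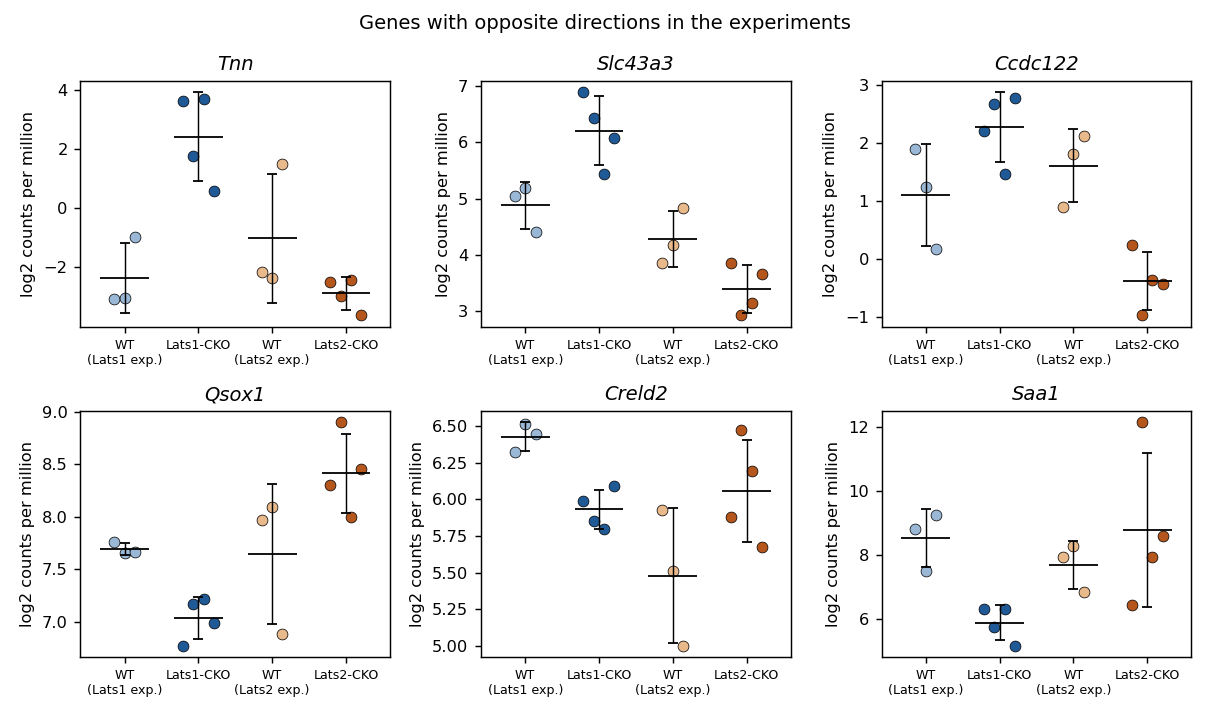
Levels of 6 of the 17 genes of opposite sign on the log2 CPM scale (prior count 2) in the 4 groups; points are tumors, lines means and bars SD over 3 WT-PyMT or 4 knockout tumors. Tnn, Slc43a3 and Ccdc122 lie higher in Lats1-CKO and lower in Lats2-CKO than in their own controls, and Qsox1, Creld2 and Saa1 the other way, with Lats2-CKO 7 the highest point of Saa1.

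Membership of the 17 depended on the libraries. Leaving out 1 library at a time, 4 to 13 of the 17 still had an unadjusted p under 0.05 in both experiments with opposite signs. DESeq2 gave 22 such genes, 15 of them shared, and limma-voom gave 31 with 4 shared. With histology as a covariate there were 7, with 3 shared: Qsox1, Rpl29 and Slc43a3. The mean of the T and NK lymphocyte list as a covariate gave 11 with 7 shared. A fit with the mean of the white adipocyte list as a covariate gave 1, which was not among the 17.

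Other genes of smallest p mostly had the larger estimate in 1 experiment and a smaller one in the other. Again none passed the adjusted threshold in edgeR with all libraries and no covariate (adjusted p = 0.913 for each). In this set DESeq2 called Cdh19, Sycp1 and Gm4847 (adjusted p = 0.0368, 0.0145 and 0.00464). It also called Nr1h5, the neighbour of Sycp1 (adjusted p = 0.0366 in DESeq2). Cdh19, a type II cadherin of the Schwann cell lineage on chromosome 1 from 110888002 to 110977601, was 32.4, 49.4 and 37.5 CPM in WT-PyMT 17, 20 and 22 and 1.19, 4.82, 0.502 and 4.68 CPM in Lats1-CKO 14, 18, 21 and 27. It was 88.4, 36.5 and 9.60 CPM in WT-PyMT 1, 2 and 14 and 32.5, 44.7, 74.7 and 94.9 CPM in Lats2-CKO 1, 7, 8 and 16. The Lats1-CKO tumors did not overlap with any other tumor, and the groups of the experiment on Lats2 overlapped. The difference was -4.29 (95% interval -6.68 to -1.90, unadjusted p = 0.00204 in edgeR, DESeq2 adjusted p = 0.0368). The other 8 genes of the Schwann and nerve list had no unadjusted p under 0.05, Sox10 among them with a difference of -0.62 (interval -1.90 to 0.66).

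Scarb2, a lysosomal membrane protein that carries glucocerebrosidase, was 58.0 to 88.3 CPM in Lats1-CKO and 116 to 131 CPM in WT-PyMT, and 136 to 186 CPM in Lats2-CKO against 75.0 to 160 CPM (difference -1.28, SE 0.32). Lefty1, a secreted Nodal antagonist, was 0.870 to 1.38 CPM in Lats1-CKO and 2.52 to 2.62 CPM in WT-PyMT, with overlap in the experiment on Lats2 (difference -1.63, SE 0.46). Ppfia1, a liprin that organises focal adhesions, had a small difference of -0.48 (SE 0.14). B3gnt7, a glycosyltransferase that extends keratan sulfate chains, was 6.12 to 13 CPM in Lats1-CKO and 2.92 to 3.57 CPM in WT-PyMT (difference 2.22, SE 0.58). In Scarb2, Lefty1 and B3gnt7, chosen by their small p, the Lats1-CKO and WT-PyMT tumors of the experiment on Lats1 did not overlap, as in 11.3% of all genes.

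In the other direction, genes with a negative Lats2-CKO and a smaller Lats1-CKO estimate included Sdhc, a membrane anchor subunit of succinate dehydrogenase, on chromosome 1 from 171129157 to 171150640. Sdhc was 151, 165 and 117 CPM in WT-PyMT 1, 2 and 14 and 88.2, 96.8, 86.8 and 81.7 CPM in Lats2-CKO 1, 7, 8 and 16. It was 154, 161 and 158 CPM in WT-PyMT 17, 20 and 22 and 166, 140, 135 and 141 CPM in Lats1-CKO 14, 18, 21 and 27. The 4 Lats2-CKO tumors were the lowest of the 14 and the groups of the experiment on Lats1 overlapped. The difference was 0.59 (95% interval 0.22 to 0.97, unadjusted p = 0.00459 in edgeR). Rsad1, Ahcyl2 and Arxes2 had differences of 2.02, 0.94 and 2.32, and in these 3 genes the WT-PyMT tumors of the experiment on Lats2 were above those on Lats1 (by 0.82 to 2.05 on the log2 scale) while the knockout groups were 0.84, 0.12 and 0.27 apart. H2-Ea-ps, a pseudogene of the class II alpha chain, was listed at 0 in all 4 Lats2-CKO libraries against 1.138, 1.45 and 27.7 CPM in WT-PyMT 1, 2 and 14, at least 323-fold lower against a floor of 3 counts over the group (at least 46-fold without WT-PyMT 14), and at 0.787 to 2.96 CPM in Lats1-CKO and 1.46 to 9.73 CPM in WT-PyMT 17, 20 and 22. The high WT-PyMT values were those of tumors 14 and 22, the libraries with the most lymphocyte RNA. With the mean of the T and NK lymphocyte list as a covariate in edgeR, the difference of H2-Ea-ps passed the adjusted threshold (adjusted p = 0.0157). The mean of the list of MHC class II genes was 3.55 to 4.86 log2 CPM in Lats2-CKO and 3.24 to 3.98 log2 CPM in Lats1-CKO tumors. The cause of the absence of H2-Ea-ps counts in Lats2-CKO was not tested.

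Sycp1 and Nr1h5, neighbours on chromosome 3 (102818499 to 102936100 and 102939658 to 102964291), encode a protein of the synaptonemal complex and a nuclear receptor of the farnesoid group. Sycp1 was 2.58 to 3.22 CPM in WT-PyMT and 1.96 to 7.72 CPM in Lats1-CKO tumors, and in the other experiment 0 to 0.391 CPM in WT-PyMT tumors against 2.09 to 4.54 CPM after Lats2 loss (difference -3.997, SE 1.12). Nr1h5 was 15.9 to 29.3 CPM and 36.1 to 43.7 CPM in the experiment on Lats1. In that on Lats2 it was listed at 0 in all 4 Lats2-CKO libraries and in WT-PyMT 2, at 0.0435 CPM in WT-PyMT 14, and at 5.69 CPM in WT-PyMT 1. Without WT-PyMT 1 the difference of Sycp1 was -6.60, and that of Nr1h5 went from 9.36 to 3.102. The neighbours thus had differences of opposite sign, and for both the WT-PyMT groups of the experiments already differed, by 4.23 and 3.55 on the log2 scale (unadjusted p = 6.52e-04 and 0.0346 in edgeR). Gm4847 was the remaining gene of the 12 smallest p with a lower difference, with 30.8 CPM in WT-PyMT 20, while Lats2-CKO 7 had 6.36 CPM and the other tumors under 1 CPM.

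Within the Hippo pathway the deleted genes were the only members of the kinase and adaptor list with an unadjusted p under 0.05 for the difference, 2 of 29, and the list's median difference was 0.10 against 0.07 over all genes (0.0134 to 0.15 leaving out 1 library). Stk3 and Stk4, the MST kinases, had differences of 0.17 and 0.99, Sav1 0.10, Mob1a 0.23 and Mob1b -0.46. Of the 9 measured coactivators, TEAD factors and VGLL cofactors, Tead2 had an unadjusted p under 0.05. It was 215, 233 and 176 CPM in WT-PyMT 17, 20 and 22 and 72.2, 74.5, 64.9 and 55.8 CPM in Lats1-CKO 14, 18, 21 and 27. It was 308, 240 and 61.6 CPM in WT-PyMT 1, 2 and 14 and 98.2, 273, 151 and 234 CPM in Lats2-CKO 1, 7, 8 and 16. Its Lats1-CKO tumors lay below their WT-PyMT tumors without overlap, and the ranges in the experiment on Lats2 overlapped (difference -1.53, 95% interval -2.89 to -0.17, unadjusted p = 0.0304 in edgeR). Yap1 and Wwtr1, which encodes TAZ, had differences of -0.34 (95% interval -1.32 to 0.64) and 0.07 (-0.88 to 1.01). Among 30 classical YAP and TAZ targets, 1, Lats2, had an unadjusted p under 0.05, against 3.16% of all genes. Their median change was 0.57 in Lats1-CKO and 0.46 in Lats2-CKO, above 0 in 23 and 20 members, and the median difference was 0.13, near the 0.07 of all genes. Leaving out 1 library moved it between -0.0091 (without Lats2-CKO 7) and 0.53 (without the library labelled Lats2-CKO 1). Cyr61 had changes of 1.08 and 0.99 and Ctgf of 1.29 and 1.11, with differences of 0.09 (95% interval -1.42 to 1.60) and 0.19 (-1.35 to 1.72).

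Genes of white adipocytes had estimates below 0 in both knockouts, further below in Lats2-CKO. All 18 members had a difference above 0, with a median of 2.25, and none had an unadjusted p under 0.05. The shares over all genes were 56.5% above 0 and 3.16% at that threshold. The median change was -2.22 in Lats1-CKO and -4.54 in Lats2-CKO. Fabp4, the fatty acid binding protein of fat cells, was 338, 222 and 544 CPM in WT-PyMT 17, 20 and 22 and 20.5, 3.15, 42.5 and 269 CPM in Lats1-CKO 14, 18, 21 and 27. It was 60.4, 2249 and 2102 CPM in WT-PyMT 1, 2 and 14 and 6.18, 112, 47 and 25.6 CPM in Lats2-CKO 1, 7, 8 and 16. The adenomas WT-PyMT 2 and 14 were far above every other tumor, and the carcinoma WT-PyMT 1 lay among the Lats2-CKO tumors. Lats1-CKO 27, an adenoma, lay within the range of its WT-PyMT tumors. The adenoma Lats2-CKO 7 was at 112 CPM. The carcinoma WT-PyMT 17, at 338 CPM, lay above the adenoma WT-PyMT 20, at 222 CPM. The difference was 2.81 (95% interval -1.28 to 6.90, unadjusted p = 0.160 in edgeR). Plin1, the lipid droplet coat protein, had a difference of 2.34 (-2.38 to 7.06), Lpl, lipoprotein lipase, of 2.50 (-0.66 to 5.66), and Pparg, the nuclear receptor that drives fat cell formation, of 1.24 (-1.49 to 3.97). Without Lats1-CKO 27 the differences of Fabp4, Plin1, Lpl and Pparg were 0.885, -1.31, 2.098 and 0.26. Without WT-PyMT 2 that of Plin1 was 1.49, and without WT-PyMT 14 that of Pparg was 0.82.

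The white adipocyte list's median was -1.97 between the WT-PyMT tumors of the experiments and 0.05 between the knockout tumors. Without Lats1-CKO 27 the median difference was 0.17, without WT-PyMT 2 it was 1.46, and with histology (adenoma against carcinoma) as a covariate it was 0.26. The brown adipocyte list had a median difference of -0.21, with 6 of 10 members below 0, and its median was 0.52 between the WT-PyMT groups and 0.87 between the knockout groups. Of the fatty acid synthesis list, Fasn and Mlxipl, which encode fatty acid synthase and a glucose-sensing transcription factor, had an unadjusted p under 0.05 (differences 1.77 and 1.48), 2 of 17 members, with a list median of 0.42 (0.14 without WT-PyMT 2, where Mlxipl was at 0.93, 0.20 without Lats1-CKO 21 and 0.21 without WT-PyMT 14). Pcx, pyruvate carboxylase, and Sdhc were the 2 of 28 TCA cycle genes, with a list median of 0.05 (-0.049 to 0.12 leaving out 1 library). The share over all genes at an unadjusted p under 0.05 was 3.16%. Pcx was 519 and 443.3 CPM in WT-PyMT 2 and 14 and 53.1 to 145 CPM in the other 12 tumors (difference 1.72, SE 0.61). Without WT-PyMT 1 its difference was 2.18 and passed the adjusted threshold (adjusted p = 0.0242 in edgeR, against 0.779 to 1 in the other fits that gave one). No glycolysis gene of 17 and no hypoxia gene of 22 had an unadjusted p under 0.05, with medians of -0.09 and 0.45. Leaving out 1 library, the first ranged from -0.27 to 0.15, and the second was 1.08 without the library labelled Lats2-CKO 1, 0.24 without Lats2-CKO 8 and 0.17 without Lats2-CKO 16.

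**Figure D4:**
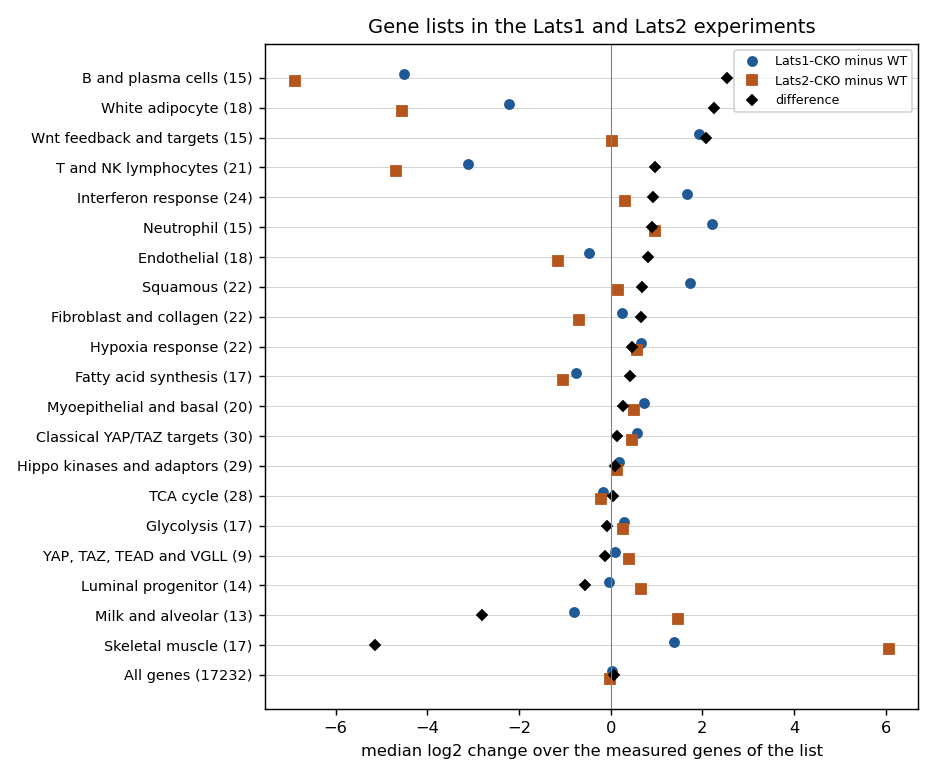
Median log2 change over the measured genes of 20 gene lists and of all genes (number of genes in brackets); circles are Lats1-CKO against WT-PyMT, squares Lats2-CKO against WT-PyMT, and diamonds the difference. White adipocyte and lymphocyte lists are below 0 in both experiments with a positive difference, and the skeletal muscle list has the lowest difference at -5.13.

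Lymphocyte genes also had estimates below 0 in both knockouts, with T and NK genes at a median difference of 0.97 (20 of 21 above 0) and B and plasma cell genes at 2.54 (14 of 15), and no member at an unadjusted p under 0.05. The mean log2 CPM of the T and NK list was 6.47 in WT-PyMT 14, 4.20 in WT-PyMT 22 and -1.36 to 1.74 in the other 12 tumors. Without WT-PyMT 14 the medians were -3.80 and -5.16, and without WT-PyMT 22 they were 5.86 and 8.95. Without Lats1-CKO 27 they were 0.36 and 0.30. Interferon response genes had a median difference of 0.93 with all 24 members above 0, and again none had an unadjusted p under 0.05. Their list mean was 3.16 and 3.16 log2 CPM in WT-PyMT 17 and 20, below the 5.27 to 7.30 of the WT-PyMT tumors in the other experiment, and the median was 2.58 without WT-PyMT 22 and 0.45 without Lats1-CKO 27. Endothelial genes had a median of 0.82 with 18 of 18 above 0, and leaving out 1 library it was 0.29 (without WT-PyMT 2) to 1.32 (without WT-PyMT 1). Over all genes, 56.5% of differences were above 0.

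Fibroblast and collagen genes had 3 of 22 members with an unadjusted p under 0.05, all higher, against 1.97% of all genes. They were Tnn, Col6a3, a chain of collagen VI, and Pdgfra, a growth factor receptor of mesenchymal cells. Pdgfra was 29.9 to 33 CPM in Lats1-CKO against 18.3 to 22.8 CPM in WT-PyMT, without overlap, and 9.87 to 25.5 CPM in Lats2-CKO against 12.8 to 52.2 CPM (difference 1.35, SE 0.56, and 0.896 without WT-PyMT 2). Col6a3 had a difference of 2.08 (SE 0.84), with 1.55 without Lats1-CKO 21 and 2.47 without WT-PyMT 14. In the knockout tumors alone it was 85.1 to 290 CPM in Lats1-CKO and 9.92 to 55.9 CPM in Lats2-CKO, with the lowest value in Lats2-CKO 7. Those knockout levels leave out the controls, between which the list's median was 0.57, against 1.10 between the knockout groups. The list's median difference was 0.67, with -0.32 without WT-PyMT 2 and 1.08 without WT-PyMT 1.

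Milk protein and alveolar genes had, next to skeletal muscle, the lowest median of the 20 lists plotted. All 13 measured genes had a difference below 0, with a median of -2.80, and 5 had an unadjusted p under 0.05. Of all 17232 genes, 7493 had a difference below 0, and 1.20% were lower at that threshold. Wap, whey acidic protein, was 248, 53.5 and 143 CPM in WT-PyMT 17, 20 and 22 and 66.3, 72.4, 14.2 and 17.2 CPM in Lats1-CKO 14, 18, 21 and 27. It was 42, 18 and 6.95 CPM in WT-PyMT 1, 2 and 14 and 18.8, 1805, 52.2 and 8.01 CPM in Lats2-CKO 1, 7, 8 and 16. Lats2-CKO 7 stood apart, and the other Lats2-CKO tumors, at 8.01 to 52.2 CPM, overlapped with their controls. Its difference was -6.20 (SE 2.22) and -2.04 without Lats2-CKO 7, and those of the caseins Csn2 and Csn1s2a went from -6.90 and -7.49 to -0.28 and -0.47. The list median without that library was -0.47, and it was -4.55 without WT-PyMT 1 and -4.37 without WT-PyMT 2. Skeletal muscle genes had a median of -5.13, with -1.73 without WT-PyMT 17 and 0.39 without Lats2-CKO 7, where the creatine kinase gene Ckm was 292 CPM against 0.389 to 1.26 CPM in the other Lats2-CKO tumors.

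Genes of Wnt signaling had a median difference of 2.09, above 0 in 13 of 15 members, and 3 had an unadjusted p under 0.05. The shares over all genes were 56.5% above 0 and 3.16% at that threshold. Lgr5, the R-spondin receptor of epithelial stem cells, was 0.767, 1.83 and 1.12 CPM in WT-PyMT 17, 20 and 22 and 26.5, 6.3, 7.23 and 15 CPM in Lats1-CKO 14, 18, 21 and 27. It was 2.74, 3.24 and 1.65 CPM in WT-PyMT 1, 2 and 14 and 12.2, 2.23, 2.21 and 1.48 CPM in Lats2-CKO 1, 7, 8 and 16. All Lats1-CKO tumors lay above their WT-PyMT tumors, and among Lats2-CKO tumors only the library labelled Lats2-CKO 1 did (difference 2.64, 95% interval 0.35 to 4.93, and 3.83 without that library). Bmp4, a bone morphogenetic protein, had a difference of 3.24 (SE 1.11) and Apcdd1, a membrane inhibitor of Wnt signaling, of 4.20 (SE 1.82). Axin2, the feedback inhibitor often read as the level of Wnt activity, was 163 CPM in Lats1-CKO 21 and 1.72 to 4.63 CPM in the other Lats1-CKO tumors, against 5.07 to 10.8 CPM in WT-PyMT. Without Lats1-CKO 21, the adenosquamous carcinoma, the list median was 0.21 and the differences of Axin2 and Apcdd1 were 0.21 and 1.93, while that of Lgr5 was never below 2.11 when any 1 library was left out. Without WT-PyMT 14 the list median was 0.96. The median of the squamous list was 0.69 with all libraries and -1.57 without that tumor, and 2.34 without WT-PyMT 17.

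The lists of basal and luminal cells had medians nearer 0. The myoepithelial and basal list had a median difference of 0.27. Of its 20 members 1, Lgr5, had an unadjusted p under 0.05, against 3.16% of all genes. The list median was -0.11 without Lats1-CKO 21, -0.066 without WT-PyMT 2 and up to 0.52 without other libraries. Krt14, the basal keratin, was 634 CPM in Lats1-CKO 21 and 51.7 to 112 CPM in the other Lats1-CKO tumors (difference 1.29, interval -0.99 to 3.56, with -0.14 without that tumor and 0.80 without WT-PyMT 1). Esr1, the estrogen receptor, was 2.84 to 8.31 CPM in Lats1-CKO against 10.8 to 17.6 CPM in WT-PyMT, without overlap, and 10.4 to 15.6 CPM in Lats2-CKO against 13.6 to 37.7 CPM. Its changes of -1.20 (SE 0.40) and -0.97 (SE 0.39) differed by -0.23 (95% interval -1.45 to 0.99). Luminal progenitor genes had a median of -0.56, with 13 of 14 below 0 (7493 of 17232 over all genes). None had an unadjusted p under 0.05, and the median was -0.15 without WT-PyMT 14 and -1.05 without WT-PyMT 1. Lyn, a Src-family kinase, was 36.4 to 48.1 CPM in Lats1-CKO and 92.6 to 103 CPM in WT-PyMT, without overlap, and 44.3, 126, 97.1 and 129 CPM in Lats2-CKO 1, 7, 8 and 16 against 89.4 to 135 CPM (difference -0.97, SE 0.40, and -1.21 without the library labelled Lats2-CKO 1).

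Among the remaining lists, macrophage genes had 3 of 17 differences above 0 (median -0.30) and genes of replication and mitosis 6 of 30 (median -0.27), with no member at an unadjusted p under 0.05. Of the 15 neutrophil genes 13 lay above 0 (median 0.90, and 0.59 to 1.75 leaving out 1 library), and Mmp9, a matrix metalloproteinase, had an unadjusted p under 0.05. The basal-associated signature of the study had 14 of 15 above 0 (median 0.48, 2 members at an unadjusted p under 0.05), and its genes lower both in Lats2-CKO tumors and in human tumors low in LATS2 had 20 of 20 above 0 (median 2.49, 4 members). Both were chosen on these tumors, so their direction is not independent evidence. The shares over all genes were 56.5% above 0 and 3.16% at an unadjusted p under 0.05.

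**Figure D5:**
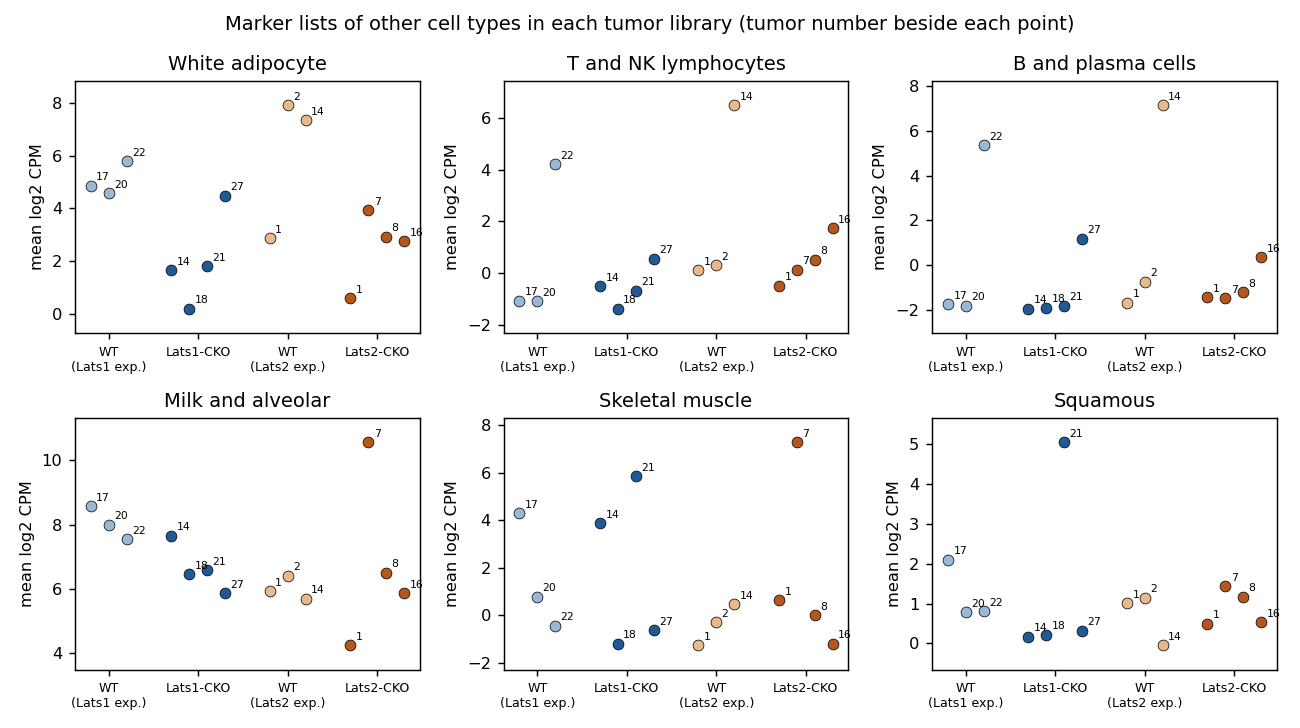
Mean log2 CPM of 6 lists of genes of other cell types or states in each tumor, with the tumor number beside each point. WT-PyMT 14 and 22 hold the highest lymphocyte genes, Lats2-CKO 7 the highest milk and skeletal muscle genes, and Lats1-CKO 21 the highest squamous genes.

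Comparing the knockout tumors with each other directly gave many more genes than the difference of the effects. Between Lats1-CKO and Lats2-CKO tumors 210 genes passed the adjusted threshold in edgeR, 1.22% of those tested, 134 higher and 76 lower in Lats1-CKO. Between the WT-PyMT tumors of the experiments 30 passed (0.174%). Of the 210, 205 had the same sign between the WT-PyMT groups, where their median in that direction was 0.89 on the log2 scale against 1.81 between the knockouts, and all 30 genes called between the WT-PyMT groups were among them. The difference of the effects had an unadjusted p under 0.05 in 48 of the 210 and passed the adjusted threshold in 3. Small RNA genes (symbols beginning with Snor, Mir, Scarna, Rny or Rnu) made up 43 of the 210 and 13 of the 30. Of the 121 such genes compared, 0 passed the adjusted threshold for the difference in edgeR and 4 had an unadjusted p under 0.05. The share over all genes at the unadjusted threshold was 3.16%.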

How the data were processed

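Mammary tumors were profiled by RNA-seq of polyadenylated RNA as single-end reads in 2 experiments of 7 libraries. The authors aligned reads with STAR to mm10, counted them over RefSeq genes and deposited whole-number counts per gene, 1 table per experiment, without normalization. The lowest sum of counts over the 7 libraries was 6 in each table, and 0 columns could not be assigned to a sample. Strand handling was not given in the sources used here, so overlapping genes are uncertain. Library totals ran from 18593864 to 31909282.

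The tables were joined on gene symbol (17232 genes of 17763 and 17702), and 531 and 470 genes of 1 table only were left out. A model with 4 groups was fitted to the counts with edgeR 4.0.16 (TMM, quasi-likelihood test, two-sided, no filter on low counts, Benjamini-Hochberg over all genes, threshold 0.05) in R 4.3.3. The members and gene lists were chosen with earlier results of these data known, and 49 lists were described by counts and medians with no set test. Genes were named when targeted, when past the threshold, among the 12 smallest p in each direction at a mean of at least 1 CPM, when of opposite sign in both experiments, when named by the study, or among the 4 smallest p of a list. Trim12a, Nr1h5, Xkr6, Csn2, Ckm, Yap1, Wwtr1, Ctgf, Cyr61, Stk3, Stk4, Sav1, Mob1a and the H2 genes near Gm8801 were chosen outside that rule after their values were seen. Alternatives were DESeq2 1.42.0 (the tool of the study's methods), limma 3.58.1 (voom with sample quality weights), other scaling, filter, join and covariates, and leaving out libraries, 24 in all. Symbols were matched to RefSeq GRCm38.p6 for 16438 genes. Libraries of a group differed by a chi-square of at least 23.2 per gene, so no library was counted as a repeat. P-values measure the spread between these tumors. Counting intervals cover counting error only, since reads carry no molecular identifiers.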

Additional observations from a re-analysis of the deposited data

Results flagged for a closer look

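For 3 genes the effects of the deletions differed past the adjusted threshold in edgeR's quasi-likelihood test: Lats1 (-1.853), Gm8801 (7.735) and 4833420G17Rik (1.857). The first is the deleted gene, and the other two were lower in Lats2-CKO than in WT-PyMT tumors of the same experiment.

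A single tumor stood apart in 13 of 139 groups of 4 examined, where chance gives about 1 in 20, or 6.95. Values here are log2 CPM. In Lats1-CKO 21 the squamous list stood at 5.05 against 0.168 to 0.316 in the other Lats1-CKO tumors, and Mtmr9 at 4.92 against 5 to 5.01. In Lats1-CKO 18, Rsad1 was 3.82 against 2.87 to 2.99 and 4833420G17Rik 6.6 against 6.41 to 6.44. In Lats1-CKO 27, B and plasma cell genes were at 1.19 against -1.94 to -1.80 and Lefty1 at 0.548 against -0.0723 to 0.0231. Rpl29 was 0.541 in Lats1-CKO 14 against 5.28 to 5.66.

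Among Lats2-CKO tumors, the library labelled Lats2-CKO 1 had hypoxia response genes at 6.46 against 4.61 to 4.88. Lats2-CKO 7 had Ckm at 8.19 against -1.09 to 0.419, Col6a3 at 3.32 against 5.51 to 5.81 and Cnr1 at -0.518 against 0.515 to 0.702. Lats2-CKO 16 had B and plasma cell genes at 0.359 against -1.47 to -1.21 and Arxes2 at 2.25 against 3 to 3.1.

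Genes listed in only 1 of the tables were left out of the comparison, and 10 of them reached at least 100 counts in a knockout library and at least 10 times the highest WT-PyMT count of their experiment. In Lats1-CKO 21 these were Lyg2 with 304 counts and further genes, among them those of keratinizing epithelium, Dsg4 with 153, Sprr1b with 143, Hrnr with 138, Tmprss11d with 136 and Sdr9c7 with 101, against at most 4 in any WT-PyMT library. In Lats1-CKO 14 they were the granzyme genes Gzmf with 262 counts, Gzmg with 177 and Gzmd with 172, against at most 2. In Lats2-CKO 16 it was Strc with 183 counts, against 1 to 13.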

How the results depend on the processing

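The count of 3 genes past the threshold for the difference became 16 in DESeq2 and 1 to 5 when 1 library was left out (1 without WT-PyMT 17, 20 or 22, and 5 without WT-PyMT 1). Lats1 remained past it in all 24 alternatives, Gm8801 in 20 and 4833420G17Rik in 8. For Lats1-CKO against WT-PyMT the count of 1 became 52 in DESeq2, 42 in limma-voom and 16 without WT-PyMT 14, Lats2-CKO 1 and Lats2-CKO 7 together, and 1 to 3 when 1 library was left out (3 without Lats2-CKO 1). For Lats2-CKO the count of 2 became 272 in DESeq2 and 1 with the mean of white adipocyte genes added as a term, and 2 to 333 when 1 library was left out, with 333 without WT-PyMT 1. Between the WT-PyMT groups 30 became 279 in DESeq2, 66 with genes of either table, 114 in limma-voom, 19 without the 3 libraries and 12 to 35 leaving out 1 (12 without WT-PyMT 2). Between the knockout groups 210 became 1255 in DESeq2, 1214 in limma-voom, 138 with histology, 334 with the T and NK mean as a covariate, 563 without the 3 libraries and 75 to 736 leaving out 1, with 75 without Lats1-CKO 21 and 736 without WT-PyMT 14. The cause of these shifts was not tested. Of 1343 pairs of a named gene and an alternative, 1334 kept the direction of the difference. The exceptions were Pparg (-0.37 with the adipocyte covariate), Plin1 (-0.82 with histology, -0.85 with the adipocyte covariate, -1.31 to 2.94 leaving out 1 library), Krt14 (-0.14 to 1.62), Esr1 (-0.60 to 0.0752) and Ckm (0.96 without the 3 libraries, -7.86 to 0.31). DESeq2 gave an unadjusted p for 16522 of the 17232 genes, and no adjusted p for 3281 of the 17232. With 3 or 4 tumors a group, and a median SE of the difference of 0.483 on the log2 scale over all genes, small differences were not detectable. The study compared littermates, but the sample labels do not give the litter of each tumor, so no paired analysis was made.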
